A study of Mus musculus with 20 samples.

Results

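The complement and coagulation factors are plasma proteins made mostly by liver cells, and 43 of their genes were followed here in mouse liver, 18 of complement and 25 of coagulation. A gene counted as measured where an array probe set names it alone, and where several did, the one with the highest mean over all 20 arrays stood for it. On that rule 39 of the 43 genes were measured, 15 of complement and 24 of coagulation. C3, Cfd and Cpb2 had no probe set of their own and C4b shares its probe set with C4a, so these 4 were not analysed here. Tissue factor, F3, had a mean of 6.44, under the filter level of 6.505 (the median over all probe sets), which left 38 genes among the 11728 tested.

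All 20 mice were male C57BL/6J, an inbred strain, and 8 weeks old per the labels. In the HFD group 10 mice ate a high-fat diet with fat at 45 kcal% for 4 weeks, and in the MSXH group 10 ate that diet with 0.05% MSXH, the maple syrup extract of the series title. After a fast of 16 h the livers were removed on day 30, and 200 ng of total RNA from each entered 3' expression arrays, 1 per mouse. The labels call the arrays of a group biological replicates, and a low-fat group and a lower extract dose of the protocol were not analysed here.

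Complement is a cascade of serum proteases. Lectins such as the mannose-binding lectins, or antibody through C1, start it on a surface, C2 and factor B form the convertases that split C3 and C5, and the terminal components build a pore in the target membrane. Coagulation is a second protease cascade, started by tissue factor with factor VII or by the contact system, which ends with thrombin cutting fibrinogen into fibrin. Protein C and protein S slow it, and plasmin, made from plasminogen, dissolves the clot. Hepatocytes make most of these proteins. Properdin comes largely from myeloid cells, and factor VIII, thrombomodulin and the tissue factor pathway inhibitor largely from endothelium.

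Promoter sequences were available for 31 of the 39 measured genes, 33 promoters in all, in RefSeq tables of build GRCm38.p6 that run from 250 bases before the transcription start to 50 after it. A half-site for the hepatocyte factor HNF1, GTTAAT or its reverse complement ATTAAC, was present in 13 of the 33 (39.4%), against 7.10% of 32851 promoters of all genes. The C/EBP core TTGCNNAA or TTNNGCAA was present in 9 (27.3%, against 10.8%), and the core of the IL-6 response element, CTGGGAA or TTCCCAG, in 7 (21.2%, against 11.1%). No position is shared by different motifs in the sequences shown. A match describes the letters only and no binding was measured.

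The printed sequences are the last 150 bases before the start, read 5' to 3' on the gene's strand. The fibrinogen genes are shown because they are gene neighbours whose levels moved together over mice, the mannose-binding lectins because their levels also moved together, and F9 because its level ran against theirs. Capitals mark the motifs above in Fga (chr3:83026003-83026152, plus strand), Fgb (chr3:83049864-83050013, minus strand), Fgg (chr3:83007574-83007723, plus strand) and F9 (chrX:59999314-59999463, plus strand). In Mbl1 (chr14:41151306-41151455, plus strand) and Mbl2 (chr19:30232778-30232927, plus strand) they mark the longest run of letters that the pair share.
Fga: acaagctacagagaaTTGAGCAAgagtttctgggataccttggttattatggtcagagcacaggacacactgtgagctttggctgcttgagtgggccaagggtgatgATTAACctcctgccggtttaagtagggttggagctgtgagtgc
Fgb: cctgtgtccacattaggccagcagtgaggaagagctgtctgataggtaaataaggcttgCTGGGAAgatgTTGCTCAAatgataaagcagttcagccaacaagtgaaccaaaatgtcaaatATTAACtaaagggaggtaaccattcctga
Fgg: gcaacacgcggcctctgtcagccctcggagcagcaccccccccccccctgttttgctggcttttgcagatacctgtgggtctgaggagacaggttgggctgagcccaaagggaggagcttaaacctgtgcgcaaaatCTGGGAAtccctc
F9: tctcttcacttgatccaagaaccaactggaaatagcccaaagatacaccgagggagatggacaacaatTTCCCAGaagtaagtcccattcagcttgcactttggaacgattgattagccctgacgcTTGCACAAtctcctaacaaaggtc
Mbl1: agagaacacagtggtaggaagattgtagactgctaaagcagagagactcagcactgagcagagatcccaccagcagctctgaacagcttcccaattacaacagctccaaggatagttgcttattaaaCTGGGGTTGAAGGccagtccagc
Mbl2: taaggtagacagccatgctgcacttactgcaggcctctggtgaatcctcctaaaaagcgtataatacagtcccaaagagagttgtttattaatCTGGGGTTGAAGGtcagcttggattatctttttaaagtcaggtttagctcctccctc
ATTAAC begins 43 bases before the start in Fga and 29 before it in Fgb, and none lies in the Fgg window. The IL-6 core begins 91 bases before the start of Fgb, 13 before that of Fgg and, on the other strand, 82 before that of F9. The C/EBP core begins 135 bases before the start in Fga, 80 in Fgb and 24 in F9. The run shared by the lectins, CTGGGGTTGAAGG, is 13 bases long, begins 23 bases before the start of Mbl1 and 57 before that of Mbl2, and occurs on either strand in 3 of the 32851 promoters, those of Mbl1 and Mbl2 included. It was chosen as the run they share, so its presence in both is by construction.

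Levels of these genes were high in the liver. Complement genes had deposited means from 7.49 (Cfp) to 13.03 (C9) on the log2 scale, with a median of 11.16, and coagulation genes from 6.59 (Thbd) to 13.82 (Fgg), with a median of 11.49. Means of 12 or more were reached by 5 of 15 complement and 9 of 23 coagulation genes. Probe sets differ in brightness for the same amount of RNA, so these levels do not rank the genes. The markers fixed for hepatocytes ran from 11.42 to 14.74 for the 6 measured. Of the adipocyte markers 1 of 4 reached the filter level, of the neutrophil markers 1 of 5 and of the lymphocyte markers 1 of 3.

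Between mice the deposited values differ by very little, with a median SD over probe sets of 9.33e-06, and cannot be read as fold changes. Mouse values are therefore given as millionths of a deposited log2 unit from the gene's mean over the 20 mice. Group differences are given as Hedges' g, the MSXH mean minus the HFD mean in SD units, corrected for small samples. The spread was smallest in the brightest genes: the SD had a median of 3.91 millionths in the 14 genes with means of 12 or more, 33.3 in the 14 genes from 10 to 12, and 84.0 in the 10 below 10. Over all 38 it was 16.3 millionths, close to the 14.8 of all genes tested. Spreads are thus comparable between genes only after scaling each gene to its own SD.

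The 2 diets gave no member past the threshold. In the limma fit 0 of 38 had an adjusted p under 0.05 over all genes tested, as did 0 of 11728 genes (0%), and the adjusted p of every member was 0.9998. At an unadjusted p under 0.05 there was 1 member of 38, Tfpi, where 3.62% of all genes (425) met that mark, 1.74% lower and 1.88% higher in MSXH. By the Wilcoxon rank-sum test 0 genes passed after adjustment, and 0 members were among its 399 genes (3.4%) at an unadjusted p under 0.05. In every member the ranges of the groups overlapped. In a simulation of this comparison over 11728 genes, drawn independently with few of them shifted, limma recovered 4% of genes shifted by 1 SD. It recovered 50% of those shifted by 2 SD, so a difference near 1 SD could not be detected reliably with 10 mice per group. Members co-varied over mice, which the simulation did not include, so these shares need not hold for them.

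The complement genes split evenly and most coagulation genes had the lower mean in MSXH. Of 15 complement genes 8 had the higher mean in MSXH and 7 the lower, with a median g of 0.0156, and of 23 coagulation genes 6 had the higher and 17 the lower, with a median of -0.126. Among all genes tested 5793 had the higher and 5935 the lower mean, with a median of -0.00692. The coagulation count depends on how arrays are scaled: after a shift of each array to a common median, 19 of the 23 coagulation and 14 of the 15 complement genes had the higher mean in MSXH, but so did 91.1% of all genes. After quantile normalization 12 coagulation genes still differed between arrays, 6 of them with the higher and 5 with the lower mean. The count also depends on single mice: the number of coagulation genes with the higher mean was 11 without HFD replicate 3, 10 without HFD replicate 2 or MSXH replicate 2, and 9 without HFD replicate 5 or 6. It was 4 without HFD replicate 4 or MSXH replicate 3, 3 without HFD replicate 9 or MSXH replicate 8, and 2 without MSXH replicate 1. Members moved together over mice, so the genes are not independent observations of the diet.

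**Figure D1:**
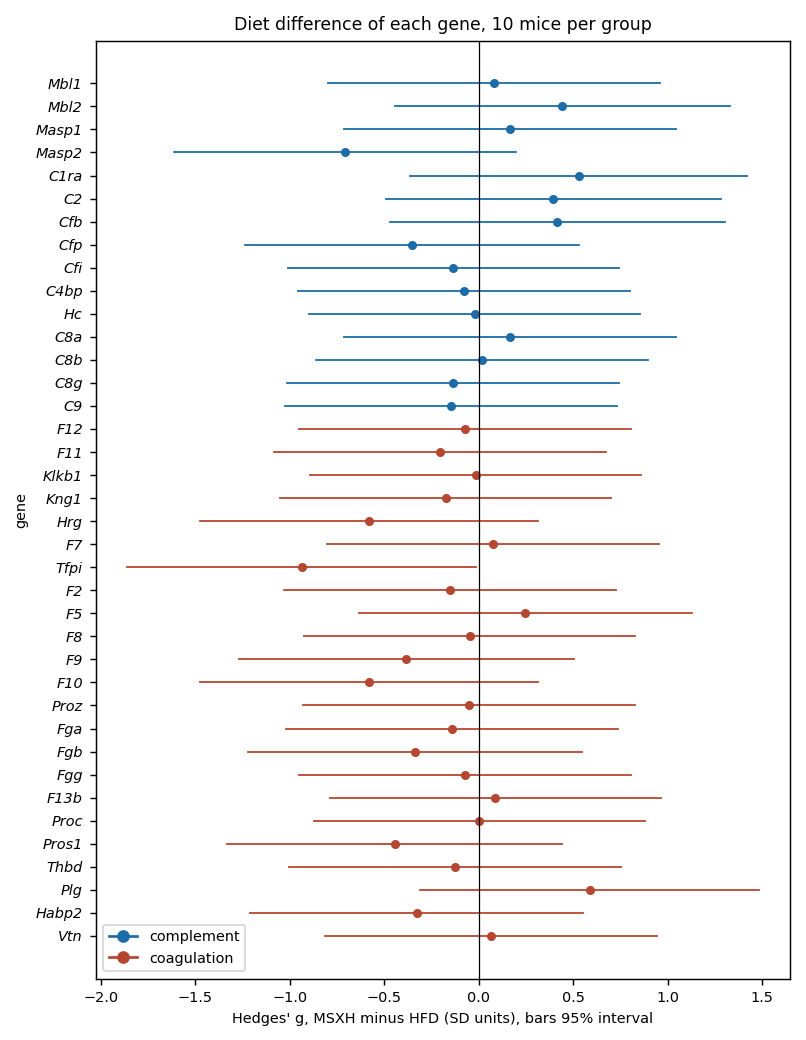
Hedges' g of each of the 38 genes, MSXH minus HFD in SD units, with its 95% interval from 10 mice per group; blue marks complement and red coagulation. The intervals cross 0 in 37 genes, and that of Tfpi runs from -1.86 to -0.0142.

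Among the recognition proteins and initiating proteases 4 of 5 had the higher mean in MSXH, none past the threshold. C1ra, the protease that activates C1s in the classical pathway, ranged from -27.4 to 20.6 millionths in the HFD mice (median -4.73) and from -25.2 to 39.1 in the MSXH mice (median 7.86). Its g was 0.53 (95% interval -0.36 to 1.42, limma unadjusted p = 0.227), with 7 of 10 MSXH mice above the HFD median. Mbl2, a mannose-binding lectin, spread far more, from -1472 to 930 millionths in HFD (median -58.6) and from -548 to 658 in MSXH (median 98.7). The lowest mouse of all for this gene was in HFD, and g was 0.44 (95% interval -0.45 to 1.33). Its paralog Mbl1 ran from -422 to 304 in HFD and from -306 to 220 in MSXH, with g = 0.08. Masp2, the lectin-bound protease that cuts C4 and C2, went the other way, from -12.0 to 18.5 millionths in HFD (median 8.28) and from -25.9 to 18.8 in MSXH (median -4.26). Its g of -0.71 (95% interval -1.61 to 0.20, limma unadjusted p = 0.111) had the lowest p of the complement genes, and 2 of 10 MSXH mice exceeded the HFD median. Masp1 had g = 0.16.

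Convertase and alternative pathway genes gave small values of either sign. C2, the protease part of the classical C3 convertase, ran from -213 to 118 millionths in HFD (median -14.9) and from -192 to 222 in MSXH (median 25.7), with g = 0.39. All 3 of its probe sets had that sign. Cfb, its counterpart in the alternative pathway, ran from -18.9 to 20.0 in HFD and from -10.6 to 17.1 in MSXH, with g = 0.41 (95% interval -0.47 to 1.30). Cfp, properdin, which stabilises the alternative convertase, ran from -92.6 to 137 in HFD (median 6.60) and from -243 to 204 in MSXH (median -25.1). Its g was -0.36, and its other probe set had the opposite sign. The regulators Cfi, which inactivates C3b, and C4bp, its cofactor on C4b, had g of -0.13 and -0.08.

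Of the terminal components 2 of 5 had the higher mean in MSXH, with a median g of -0.02. Hc, which encodes C5, ran from -14.6 to 13.2 millionths in HFD and from -9.38 to 7.89 in MSXH, with g = -0.02. C8a and C8b, chains of the pore component C8, had g of 0.17 and 0.02. For C8a, 8 of 10 MSXH mice exceeded the HFD median of -36.0 millionths, although the lowest mice of the groups were alike and the highest mouse was in HFD, with ranges of -155 to 191 in HFD and -151 to 101 in MSXH. C8g, the chain of C8 that is not part of the pore, kept within -3.21 and 3.31 millionths over all mice and had g = -0.14. C9, which polymerises into the pore, ran from -10.2 to 13.8 in HFD and from -14.0 to 9.26 in MSXH, with g = -0.15.

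Of the genes grouped here with the contact system, which starts clotting on charged surfaces, 5 of 5 had the lower mean in MSXH. Their median g was -0.18, with none past the threshold. Hrg, related to Kng1, was counted here without being a contact factor itself. Hrg, histidine-rich glycoprotein, ran from -3.96 to 4.74 millionths in HFD (median 1.23) and from -4.91 to 9.22 in MSXH (median -2.30). Only 2 of 10 MSXH mice exceeded the HFD median, yet the highest of all 20 was an MSXH mouse, and g was -0.58 (95% interval -1.47 to 0.31, limma unadjusted p = 0.217). F11 spread widely, from -723 to 597 millionths in HFD (median 64.2) and from -907 to 690 in MSXH (median -73.6), with g = -0.21. Klkb1, plasma prekallikrein, ran from -319 to 243 in HFD and from -166 to 168 in MSXH, with g = -0.02. Kng1, kininogen, had g = -0.18, with the opposite sign at its other probe set, and F12 had -0.07.

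The gene with the lowest p of all members was Tfpi, which encodes the inhibitor of tissue factor and factor Xa. It ran from -17.1 to 52.6 millionths in HFD (median 8.97) and from -43.5 to 12.2 in MSXH (median -7.46), and 1 of 10 MSXH mice exceeded the HFD median. Its g was -0.94 (95% interval -1.86 to -0.0142, limma unadjusted p = 0.0387, adjusted p = 0.9998), and unadjusted p ranged from 0.0193 to 0.993 over the alternative fits. The other 3 Tfpi probe sets had the opposite sign, with g of 0.22, 0.37 and 0.24. Its mean of 7.06 was little above the filter level. F7, the protease that tissue factor binds, ran from -44.7 to 35.9 in HFD and from -41.8 to 71.0 in MSXH, with g = 0.07. F3, below the filter, had g = 0.17.

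Of the 6 genes grouped here as vitamin K-dependent factors and clotting cofactors, 1 had the higher mean in MSXH. The vitamin K-dependent F7, Proc and Pros1 were counted in other groups. F10, whose product makes thrombin, ran from -11.1 to 12.8 millionths in HFD (median 7.78) and from -18.9 to 22.5 in MSXH (median -6.22). Its g was -0.58 (95% interval -1.48 to 0.31), 2 of 10 MSXH mice exceeded the HFD median, and its 3 probe sets shared the sign. F9, the factor missing in haemophilia B, ran from -20.9 to 32.2 in HFD and from -21.8 to 27.0 in MSXH, with g = -0.38. F5, the cofactor of factor Xa, had g = 0.25 (95% interval -0.63 to 1.13), with values from -22.4 to 13.8 in HFD and from -9.69 to 14.7 in MSXH. Its other probe set had the opposite sign, with g = -0.10. F2, prothrombin, had the smallest spread of the members, from -1.16 to 0.78 millionths in HFD and from -0.759 to 0.68 in MSXH, and g = -0.15. F8 had g = -0.05, with values from -22.5 to 18.9 in HFD and from -20.9 to 23.8 in MSXH, and Proz, which encodes protein Z, had g = -0.05. The other Proz probe set had g = 0.26.

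The fibrinogen chains had the lower mean in MSXH in 3 of 3 genes, by less than their spread. Fga, the alpha chain, ran from -82.2 to 107 millionths in HFD and from -148 to 60.5 in MSXH, with g = -0.14. Fgb, the beta chain, ran from -6.98 to 8.53 in HFD and from -7.70 to 6.59 in MSXH, with g = -0.34. Fgg, the gamma chain, ran from -7.39 to 11.3 in HFD and from -12.7 to 7.89 in MSXH, with g = -0.07. F13b, the carrier subunit of the enzyme that cross-links fibrin, ran from -56.9 to 63.8 in HFD and from -45.8 to 81.1 in MSXH, with g = 0.09.

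Among the anticoagulant and fibrinolytic genes 3 of 6 had the higher mean in MSXH, none past the threshold. Proc, protein C, had g = 0.00 with values from -4.08 to 3.62 millionths in HFD and from -2.84 to 3.47 in MSXH. Pros1, its cofactor protein S, ran from -418 to 675 in HFD (median 37.6) and from -364 to 512 in MSXH (median -119), with g = -0.45 (95% interval -1.33 to 0.44) and 3 of 10 MSXH mice above the HFD median. Thbd, thrombomodulin, had the widest spread of all members, from -2102 to 2121 in HFD and from -2100 to 2182 in MSXH, and g = -0.13. Plg, plasminogen, ran from -2.63 to 1.62 in HFD (median -0.0125) and from -1.72 to 1.86 in MSXH (median 0.557). Its g of 0.59 (95% interval -0.31 to 1.48) was the highest of the members, with a limma unadjusted p of 0.377. The values of g and p part here because limma moderates the SD over all genes, which weighs most on genes with a very small spread. Vtn, vitronectin, had g = 0.07 and Habp2, a plasma protease that can activate factor VII, -0.33. For both genes the other probe set had the opposite sign, with g of -0.16 for Vtn and 0.42 for Habp2.

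The mice differed from each other in many members at once, within both diets. Each gene was set against its own median over the 20 mice. In HFD replicate 2, 12 of 15 complement and 20 of 23 coagulation genes lay above it, and in HFD replicate 1 the counts were the same. HFD replicate 4 had 1 and 5 genes above, and HFD replicate 9 had 1 and 6. In MSXH replicate 1 the counts were 14 and 18, and in MSXH replicate 2 they were 1 and 2. MSXH replicate 8 had 14 of each class above. In each of these mice most genes of both classes lay on the same side. In MSXH replicate 7 the classes parted, with 10 complement genes and 7 coagulation genes above.

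**Figure D2:**
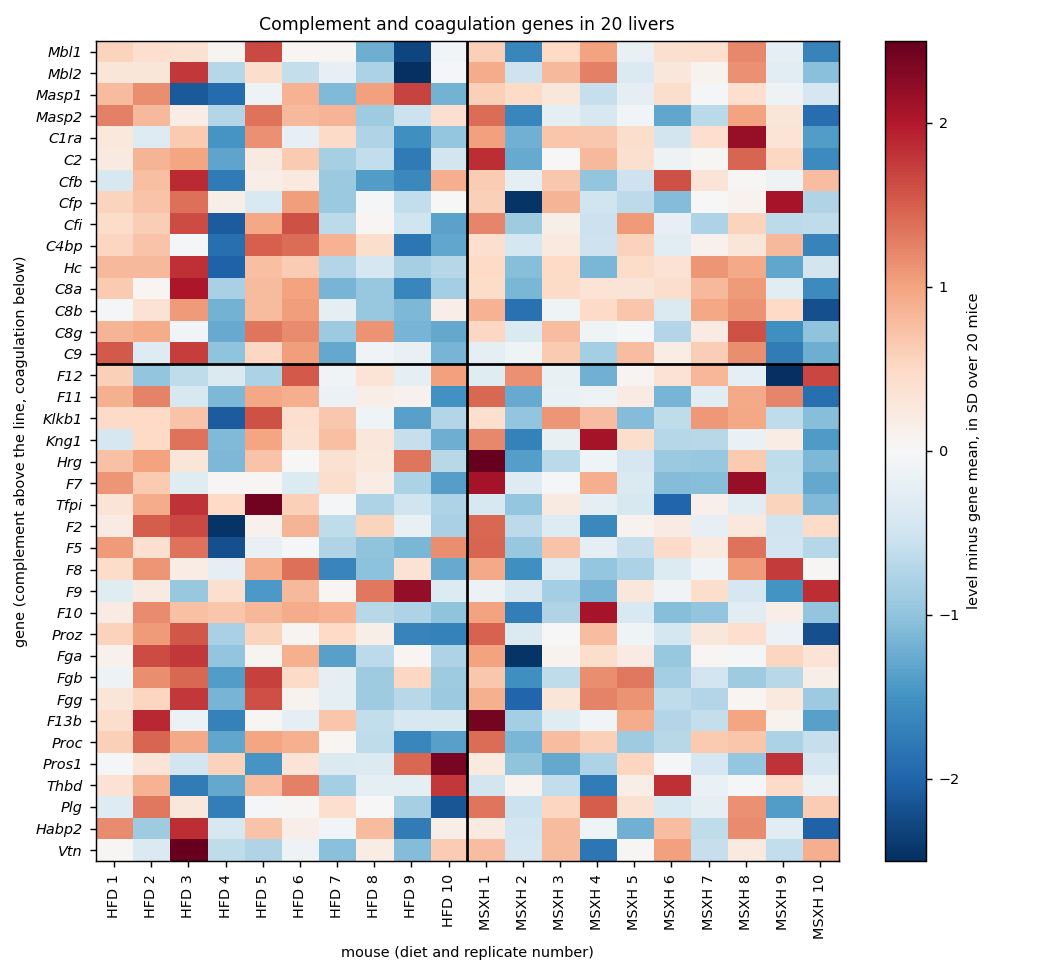
Level of 38 genes (rows, complement above the line and coagulation below) in 20 livers (columns, HFD left and MSXH right), as the difference from the gene's mean in SD over the 20 mice. MSXH replicate 2 was low in most rows, with 1 of 15 complement and 2 of 23 coagulation genes above their median, and MSXH replicate 1 was high, with 14 and 18.

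The members co-varied over the 20 mice, and in the deposited values the median r was highest among the complement genes. The median Pearson r was 0.514 over the 105 pairs within complement (jackknife SE over mice 0.0783), 0.312 over the 253 pairs within coagulation (SE 0.0836) and 0.384 over the 345 pairs between the classes (SE 0.0615). Over all pairs of the 11728 genes it was 0.0120. Within complement 98 of 105 pairs were positive and 54 had r above 0.5, within coagulation 184 and 78 of 253, and between the classes 289 and 114 of 345, whereas 5.04% of all pairs had r above 0.5. F9, F12 and Pros1, all of coagulation, were mostly negative with the other members. Without them the median r was 0.449 over the remaining 190 pairs within coagulation and 0.426 over 300 between the classes. These genes were picked for their low r, so leaving them out was bound to raise both medians. Masp1 of complement, with a median r of 0.0618 with the other members, was kept. The pairs share genes, mice and arrays, so these medians are descriptions and the difference between the classes was not tested.

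The order of the 3 medians was the same in each diet. Within the HFD mice they were 0.614 for complement, 0.360 for coagulation and 0.472 between the classes, and within the MSXH mice 0.484, 0.272 and 0.345. All pairs of genes had medians of 0.00925 and 0.0213 there. Both that order and the contrast with other genes changed with the scaling of the arrays. After a shift of each array to a common median the 3 values were 0.652, 0.869 and 0.706, against 0.875 for all pairs of genes. After quantile normalization, which left 21 of the 38 genes with any difference between arrays, they were -0.0930, -0.0608 and -0.00764, against 0.123 for all pairs. Complement had the lowest of the 3 medians under both scalings.

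**Figure D3:**
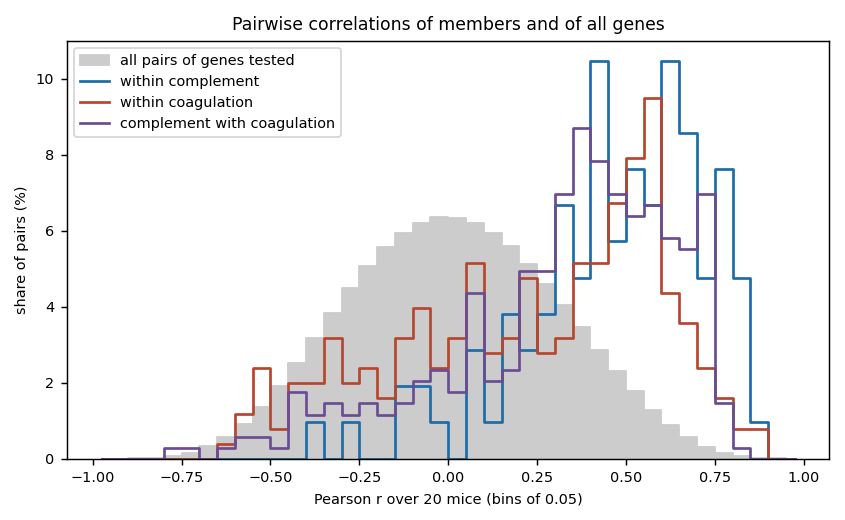
Share of gene pairs (%) by Pearson r over 20 mice, in bins of 0.05, for pairs within complement, within coagulation and between them (lines), and for all pairs of genes tested (grey). The member pairs lie to the right of the grey distribution, with medians of 0.514, 0.312 and 0.384 against 0.0120.

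A measure of RNA integrity moved with some members. The difference between the 3' and 5' probe sets of the actin control had a median r of -0.291 with the 38 genes and of 0.0243 with all genes tested, and reached 0.656 for F9 and 0.473 for F12. For Pros1 it was -0.0523, but Pros1 had r = 0.734 with the median of the array, the highest of the 38 genes, and -0.526 with the same difference of the Gapdh control, the lowest. The actin difference was also regressed out of each gene, an alternative chosen after seeing the data. The median r between members was then 0.458 within complement, 0.279 within coagulation and 0.324 between them. The part of the Gapdh control and of the array median in the co-variation was not tested. Between the diets the actin difference had g = 0.49 (MSXH minus HFD), the Gapdh difference 0.35 and the array median -0.31. Their part in the diet differences of the members was not tested either.

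Most members had positive r with most others, and 3 coagulation genes ran the other way. C2 had the highest median r with the other 37 genes, 0.605, followed by Proc with 0.601 and Proz with 0.582. F9 had a median of -0.276 and was negative with 31 of 37, F12 had -0.276 with 27 negative and Pros1 -0.148 with 29 negative. Thbd (0.00669) and Masp1 (0.0618) followed neither. The Masp1 probe set used also had r from -0.0831 to 0.103 with the gene's other 4 probe sets. C2, by contrast, had r of 0.922 and 0.902 with its other probe sets and Vtn 0.822 with its own. Over the 18 additional probe sets of 11 members the median was 0.443, and 8 of 18 had the diet sign of the probe set used.

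**Figure D4:**
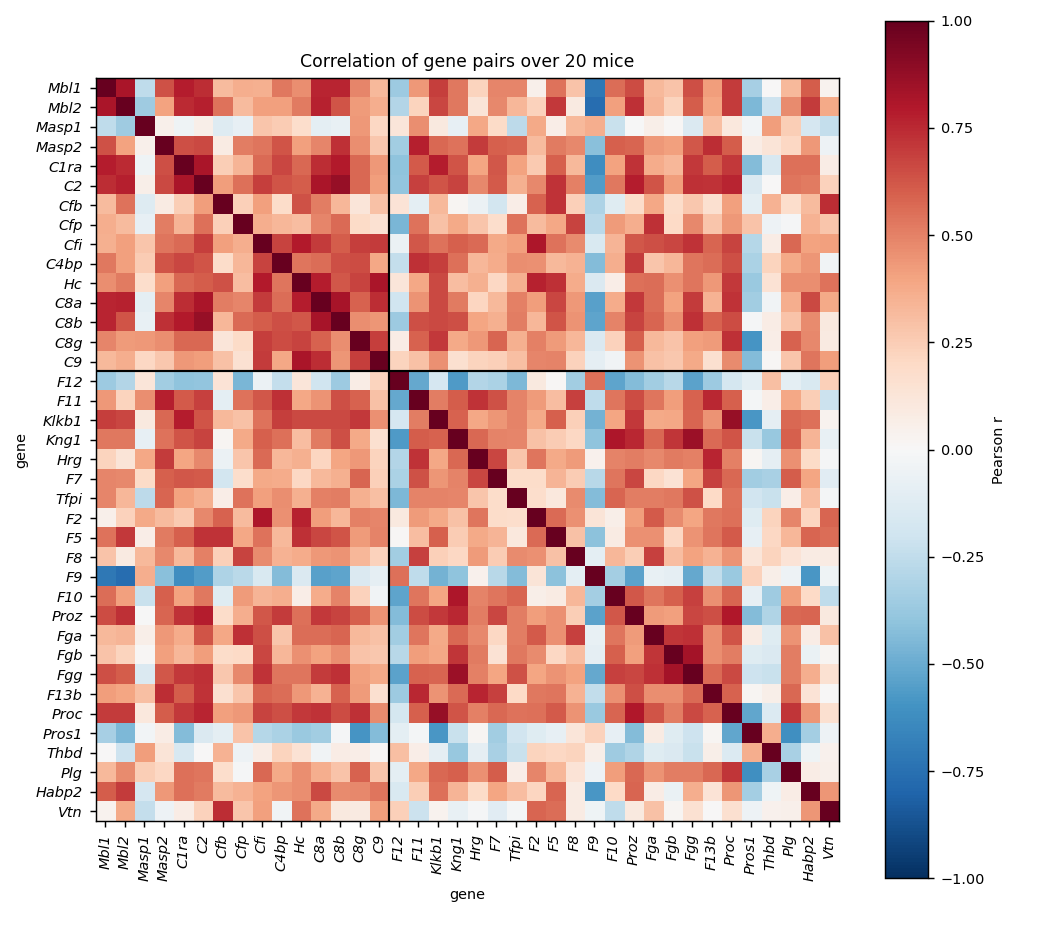
Pearson r over 20 mice for each pair of the 38 genes, from -1 (blue) to 1 (red), with complement before the black lines and coagulation after them. Most cells are red, while the rows of F9, F12 and Pros1 are mostly blue, with 31, 27 and 29 of 37 values negative.

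A list of 45 gene pairs joined subunits, cascade partners, gene neighbours, paralogs, and members with a cell type or acute phase marker, and 40 of the pairs could be measured. Of the 40, 15 passed an adjusted p under 0.05 over the 40 (permutation test, two-sided, 100000 resamples), 14 positive and 1 negative, and all 15 had the same sign within each diet. That share is close to the background: of all 703 pairs of the 38 members 240 (34.1%) passed the same threshold with adjustment over the 703, so nothing particular to the listed pairs is read from their count. By Spearman's rho 13 of these passed. The negative pair, Proc with Pros1, lay at the very edge of the threshold.

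The fibrinogen chains varied together. Fgb and Fgg had r = 0.828 (rho = 0.821, permutation p = 3.0e-05, adjusted p = 0.0002), and r = 0.756 without the 2 mice farthest from the Fgb median. Within HFD r was 0.888 and within MSXH 0.778. Fga had r = 0.730 with Fgg and 0.717 with Fgb (rho = 0.719 and 0.728, permutation p = 0.00017 and 0.00024, adjusted p = 0.000971 and 0.0012), falling to 0.542 and 0.610 without 2 mice. In MSXH replicate 2 all 3 chains were the lowest of the 20 mice, and HFD replicates 3 and 5 gave the highest values of both Fgb and Fgg.

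Among the chains of the C8 complex, C8a and C8b varied together most closely. C8a and C8b, which are neighbouring genes, had r = 0.827 (rho = 0.829, permutation p = 1e-05, the smallest that 100000 resamples can give, adjusted p = 0.0002), with 0.844 in HFD, 0.900 in MSXH and 0.767 without 2 mice. C8a with C8g, which lies elsewhere in the genome, had r = 0.591 (rho = 0.638, permutation p = 0.00636, adjusted p = 0.0233). For C8b with C8g r was 0.468, which did not pass (adjusted p = 0.0860). Hc and C9, components of the same pore, had r = 0.819 (rho = 0.771, permutation p = 3.0e-05, adjusted p = 0.0002) and 0.796 without 2 mice.

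Early complement genes also paired. Mbl1 and Mbl2 had r = 0.815 (rho = 0.853, permutation p = 1e-05, adjusted p = 0.0002), with 0.797 in HFD and 0.907 in MSXH, and 0.669 without 2 mice. C1ra and C2 had r = 0.813 (rho = 0.740, permutation p = 2.0e-05, adjusted p = 0.0002) and 0.750 without 2 mice. Masp1 and Masp2 had r = 0.0545 (adjusted p = 0.901). C2 and Cfb, adjacent genes for related proteases, had r = 0.419 (adjusted p = 0.133), with 0.830 in HFD and -0.198 in MSXH; that difference was not tested.

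Of the coagulation pairs outside fibrinogen 5 passed. Klkb1 and Kng1, whose products circulate as a complex, had r = 0.591 (rho = 0.516, permutation p = 0.00642, adjusted p = 0.0233), and did not pass by rho (adjusted p = 0.0600). Kng1 and Hrg, related genes that lie close together, had r = 0.570 (rho = 0.654, permutation p = 0.0085, adjusted p = 0.0262). F2 and Vtn had r = 0.586 (rho = 0.553, permutation p = 0.00798, adjusted p = 0.0262). F7 and the adjacent gene F10 had r = 0.536 (rho = 0.686, permutation p = 0.0153, adjusted p = 0.0437). Proc and Pros1, enzyme and cofactor of 1 anticoagulant pathway, had opposite levels with r = -0.518 (rho = -0.480, permutation p = 0.0187, adjusted p = 0.0499995). That r fell to -0.299 without 2 mice, and the pair did not pass by rho (adjusted p = 0.0807). Its adjusted p for r lay so close to 0.05 that another draw of resamples could end the call. F11 and Klkb1, adjacent genes, had r = 0.515 (adjusted p = 0.0515), and F12 with Klkb1, F9 with F10 and F9 with F11 had r of -0.171, -0.339 and -0.254, none of which passed.

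Leaving out 1 mouse ended the call of some of these pairs. The 10 pairs with r of 0.591 or more passed in all 20 such fits. F8 with the endothelial marker Stab2 did not pass without MSXH replicate 2 (adjusted p = 0.0571). F2 with Vtn was lost without HFD replicate 3 or MSXH replicate 4 (highest adjusted p = 0.0855), and Kng1 with Hrg without HFD replicate 4 or MSXH replicates 1, 2 or 10 (highest 0.0712). F7 with F10 passed in 10 of 20 such fits (highest 0.0789) and was lost without any of HFD replicates 2, 7, 9 and 10 and MSXH replicates 1, 4, 5, 6, 7 and 10. Proc with Pros1 passed in 5 of 20 (highest 0.132), namely those without HFD replicates 2, 6 or 8 or MSXH replicates 1 or 2.

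Saa1, the only acute phase marker in the list of pairs, did not pass with any of the 6 members paired with it. The other acute phase genes were not set against the members. Saa1 encodes serum amyloid A, and fibrinogen, C9 and factor B are themselves known acute phase proteins. Its r was 0.163 with Fga, -0.0196 with Fgb, 0.0364 with Fgg, 0.152 with C9, 0.0505 with Hc and -0.0827 with Cfb, with a lowest adjusted p of 0.656.

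Some of the highest and lowest r among the 703 pairs of members joined genes that no list had paired, and these are described without a test because they were chosen for their values. Klkb1 with Proc had r = 0.870 (rho = 0.774; 0.855 in HFD and 0.894 in MSXH), C2 with C8b 0.867 (rho = 0.868) and Kng1 with Fgg 0.855 (rho = 0.854). Across the classes, Cfi with F2 had r = 0.808 and Cfb with Vtn 0.739. The lowest was Mbl2 with F9, r = -0.762 (rho = -0.728), which was -0.876 in HFD, -0.557 in MSXH and -0.642 without the 2 mice farthest from the Mbl2 median. HFD replicate 9 had the lowest Mbl2 value of the 20 mice and the highest F9 value. F9 also ran against Mbl1 (r = -0.714, rho = -0.525) and C1ra (r = -0.624, rho = -0.623). Pros1 with Plg had r = -0.611 (rho = -0.447), which was -0.309 without 2 mice, and F12 with Kng1 had -0.570 (rho = -0.629).

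**Figure D5:**
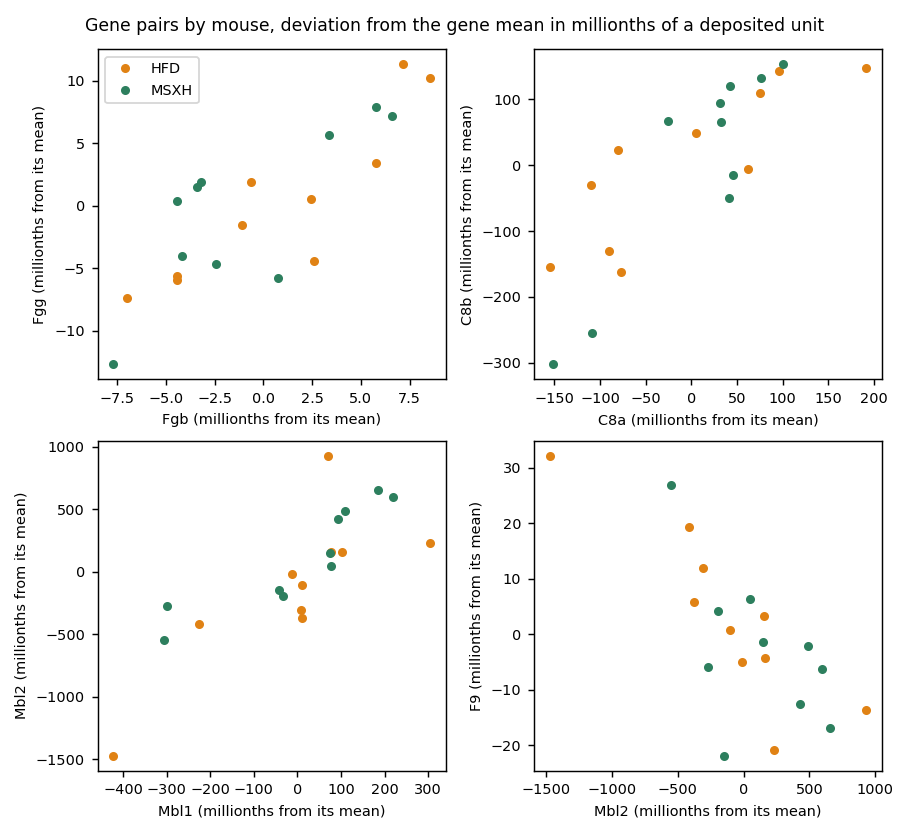
Levels of 4 gene pairs by mouse, in millionths of a deposited log2 unit from each gene's mean, HFD in orange and MSXH in green (10 mice each). Fgb with Fgg, C8a with C8b and Mbl1 with Mbl2 are high in the same mice (r = 0.828, 0.827 and 0.815), and F9 is low where Mbl2 is high (r = -0.762).

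Members that neighbour each other in the genome, with at most 2 protein-coding genes between them in the RefSeq gene order, formed 10 pairs. The median r was 0.641 over these pairs, against 0.386 over the other pairs of the 38 members tested. The neighbours include the fibrinogen genes, C8a with C8b, C2 with Cfb, F11 with Klkb1 and Kng1 with Hrg. F7, F10 and Proz lie in 1 cluster, where F10 with Proz had r = 0.617 and F7 with Proz 0.665. These are descriptions over pairs that share genes.

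Some members that are made outside hepatocytes followed markers of other liver cells. Cfp had r = 0.804 with Clec4f, a Kupffer cell lectin (rho = 0.785, permutation p = 3.0e-05, adjusted p = 0.0002), with 0.606 in HFD, 0.864 in MSXH and 0.601 without 2 mice. With the 8 Kupffer cell and macrophage markers fixed for these data, r was positive in 8 of 8, from 0.671 (Marco) to 0.907 (Adgre1). With the 6 hepatocyte markers its median was -0.155. F8 had r = 0.587 with Stab2, a scavenger receptor of sinusoidal endothelium (rho = 0.592, permutation p = 0.00568, adjusted p = 0.0233), and 0.531 without 2 mice. Over all 8 endothelial markers its median r was 0.0890, while over the Kupffer markers it was 0.446, with 8 of 8 positive. Tfpi had a median of 0.596 with the Kupffer markers and of -0.124 with the endothelial ones, and with Kdr, an endothelial receptor, r was 0.338 (adjusted p = 0.254). Thbd, at a mean of 6.59 close to the filter level, had r = -0.393 with Kdr (adjusted p = 0.164) and was negative with all 8 Kupffer markers. The positive r were not particular to Kupffer markers. With the 7 stellate cell markers r was positive in 7 for Tfpi (median 0.440), 6 for Cfp (0.375) and 6 for F8 (0.274). For Thbd it was positive in 1 of the 7 (median -0.0944). In whole liver, fewer cells of a type and less RNA per cell cannot be told apart. Between the diets the Kupffer markers had the lower mean in MSXH in 6 of 8 (median g = -0.12) and the endothelial markers the higher in 7 of 8 (median g = 0.45, smallest unadjusted p = 0.0721), with none past the threshold. Their summed linear level ran from 4735 to 4738 in HFD and from 4734 to 4738 in MSXH for the Kupffer markers. For the endothelial ones it ran from 3674 to 3675 in HFD and from 3674 to 3676 in MSXH. Because the deposited values differ so little between mice, these sums do not measure cell content. Of the 3 platelet markers tested, Pf4 had g = 1.01 (limma unadjusted p = 0.0284, adjusted p = 0.9998), Itga2b 0.21 and Gp1bb -0.33.

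Other genes of these pathways gave no call either. Of 20 other complement genes listed, 16 were tested, of which 6 had the higher and 10 the lower mean in MSXH (median g = -0.15). Fcna, ficolin A, a lectin that also starts complement, had g = -1.01 (95% interval -1.94 to -0.08, limma unadjusted p = 0.0268, adjusted p = 0.9998), with 3 of 10 MSXH mice above the HFD median. Cd46, a membrane regulator, had -0.77. Of 20 other coagulation and fibrinolysis genes, 13 were tested, 9 higher and 4 lower (median g = 0.20), led by the thrombin receptor F2r with 0.64 and the protein C receptor Procr with 0.58. Among 11 hepatocyte transcription factors and IL-6 signalling genes 4 were higher and 7 lower, with Hnf4a at 0.42 and Socs3 at -0.34. Among 11 acute phase genes 4 were higher and 7 lower (median g = -0.09), with Crp at -0.91 (limma unadjusted p = 0.0433) and 1 of 10 MSXH mice above the HFD median, and Apcs at 0.45.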

How the data were processed

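The deposited values of 45101 probe sets on 20 arrays are treated as log2 levels, between 5.20 and 14.96. Per the labels' protocols, the authors prepared biotin-labelled RNA with a 3' IVT kit. How background, normalization and probe summary were handled is not stated in those labels, and what compressed the differences between arrays is unknown. Array medians ran from 6.5053 to 6.5055, and no arrays held identical values. The signal over background is unknown, and precision is limited by the number of arrays.

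The 64 control probe sets were left out. The platform annotation names 1 gene for 34945 probe sets, several for 932 and none for 9160. For each of the 18193 genes its probe set of highest mean was used, and genes under a mean of 6.505 were removed. The diets were compared by lmFit and eBayes of limma 3.58.1 (R 4.3.3) with Benjamini-Hochberg adjustment over 11728 genes and a threshold of 0.05. Correlations used 100000 permutations. Values for each group were given for the 3 members of each class with the smallest p in each direction, the 4 of each class with the largest SD and members of pairs past the threshold, and other lists name up to 2 genes. Member pairs outside the fixed list, F9, F12, Pros1 and Masp1 were singled out after their values were seen. The members and lists were chosen with earlier results of these data known. Alternatives were other array scalings, filters, probe sets, limma settings and tests, the replicate number as a block, the actin control regressed out, and each array left out. Data for this comparison were simulated for 11728 genes, drawn independently and with few of them shifted. On these, limma recovered 4% of genes shifted by 1 SD, 20% at 1.5, 50% at 2 and 96% at 3. With no shift it called 0 genes. Python 3.11.15 with matplotlib 3.10.9 drew the figures.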

Additional observations from a re-analysis of the deposited data

Results flagged for a closer look

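In 4 of 78 sets of 10 mice (39 genes in each diet) a single mouse stood apart from the other 9 by Dixon's criterion, the gap to the nearest mouse over the whole range of the group. Chance gives about 5%, or 3.9 sets. Hrg in MSXH replicate 1 was high, with a gap of 0.490 of the range. F3, below the filter level, was high in MSXH replicate 4 with 0.560. Proz was low in MSXH replicate 10 with 0.477, and Vtn was high in HFD replicate 3 with 0.558.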

How the results depend on the processing

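No alternative gave a member past an adjusted p of 0.05. The count of members at an unadjusted p under 0.05 was 1 (Tfpi). It was 0 after a shift to a common median, with quantile normalization (21 members tested), with the 75th percentile filter (36 tested, Tfpi removed), with the mean of a gene's probe sets, with the second probe set, with array weights and with the Wilcoxon test. Leaving out 1 mouse gave 0 to 3: 3 without MSXH replicate 1 (Masp2, Hrg, Tfpi), 2 without MSXH replicate 4 (Tfpi, F10) and 0 without any of HFD replicates 2 to 6 or MSXH replicates 2, 6 and 10. With the replicate block, 1 member (Tfpi) and 501 genes had an unadjusted p under 0.05 and 0 passed after adjustment. Mice of the same number had correlated deviations from -0.136 to 0.373, and for 2 of 20 arrays the best correlate had the same number; the labels do not tell whether mice of the same number share more than the number. Median g lay between -0.109 and 0.212 for complement and between -0.263 and -0.0172 for coagulation over the mice left out, and was 0.296 and 0.278 after a shift to a common median. Of 31 members named by the rule, 13 changed sign of g under that shift, 8 of 17 measurable under quantile normalization and 15 in at least 1 fit without a mouse. With quantile normalization g of F10 was 0.43, and at its second probe set g of Tfpi was 0.22. The median r within complement, within coagulation and between them was 0.652, 0.869 and 0.706 after a shift to a common median, and -0.0930, -0.0608 and -0.00764 after quantile normalization. Without 1 mouse it ran from 0.477 to 0.549, 0.287 to 0.355 and 0.356 to 0.414. Of the fixed pairs 15 passed, 36 after a shift to a common median, 0 after quantile normalization (25 testable), 19 with the mean of probe sets, 19 with the second probe set, 13 by Spearman's rho and 12 to 16 without 1 mouse. The cause of these changes was not tested.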
